A study of Mus musculus with 2 samples.

Results

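The aldehyde dehydrogenases (ALDH) described here are the retinaldehyde dehydrogenases and related enzymes Aldh1a1, Aldh1a2, Aldh1a3, Aldh1a7, Aldh1b1, Aldh2, Aldh3b1, Aldh6a1, Aldh7a1 and Aldh9a1. They are 10 of 36315 genes or lincRNA intervals on the array. Their 12 non-control probes were found by the gene name that the array files give, and the set was chosen with the ratios of ESlncRNA over vector known, so those ratios are given as a description with no test. A further 11 ALDH genes on the array serve as a comparison.

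The starting cells were lineage-negative (Lin-) erythroid progenitors from the fetal livers of C57BL/6 mice at E14.5. One group was transduced with ESlncRNA, a long noncoding RNA of erythroid cells also known as lincRNA-EPS, and the other with the vector. Both groups were sorted as GFP-positive cells, and the series' design text gives the aim as a comparison of transcript levels between them. Each of 2 two-colour oligonucleotide arrays paired ESlncRNA RNA in Cy5 with vector RNA in Cy3 and gave 1 ratio. No dyes were swapped, so both ratios of a probe hold its dye effect. The labels do not tie the replicates to separate cultures or animals, and the spread between the 2 arrays may be technical.

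ALDH enzymes use NAD or NADP to oxidise aldehydes to carboxylic acids. The retinaldehyde dehydrogenases carry out the last step from vitamin A to retinoic acid, which binds nuclear receptors of the RAR family paired with RXR and steers differentiation in many embryonic tissues and in myeloid cells. Other ALDH enzymes clear acetaldehyde and the aldehydes of lipid peroxidation, or serve the breakdown of valine and lysine and the synthesis of carnitine, and high ALDH activity is widely used to enrich haematopoietic stem and progenitor cells.

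Aldh1a1 and Aldh1a7 are paralogues on chromosome 19, and the RefSeq table (GRCm38.p6) lists 0 genes between them. RefSeq promoter windows were found for 7 of the 10 genes. The 250 bases before the start of Aldh1a7 and the 250 bases before 1 of the 2 annotated starts of Aldh1a1 are printed because they share a far longer run than any other pair of windows and belong to the pair with the highest ratios after loess. Aldh1a3, dim in vector, lay above Aldh1a1 with 4 of the alternatives and above both of them with 2. The Aldh1a1 window was picked from its 2 for that likeness. Both are given 5′ to 3′ on the gene's strand, and capitals mark the longest run of bases shared by both, 65 bases. The Aldh1a1 window is chr19:20601718-20601967 on the plus strand and the Aldh1a7 window chr19:20727557-20727806 on the minus strand of GRCm38.p6.
Aldh1a1: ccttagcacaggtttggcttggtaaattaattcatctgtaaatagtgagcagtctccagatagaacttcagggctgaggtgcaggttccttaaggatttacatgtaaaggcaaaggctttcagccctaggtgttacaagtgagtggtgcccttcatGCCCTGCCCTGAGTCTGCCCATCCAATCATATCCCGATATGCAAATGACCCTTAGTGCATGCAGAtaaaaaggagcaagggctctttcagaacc
Aldh1a7: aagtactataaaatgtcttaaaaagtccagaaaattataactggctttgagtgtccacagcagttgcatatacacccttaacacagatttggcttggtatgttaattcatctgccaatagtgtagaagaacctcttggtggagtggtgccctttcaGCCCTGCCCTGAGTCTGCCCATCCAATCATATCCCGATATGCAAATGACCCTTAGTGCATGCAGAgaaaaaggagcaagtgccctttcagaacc

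A global alignment of these windows, with no penalty for gaps at the ends, held 175 aligned bases, of which 160 were identical (91.4%). The last 110 bases before the start differed at 6 positions without a gap, namely C154T, A155C, T156A, T222G, G236T and T239C, with the base of Aldh1a1 first and positions counted from 1 at the 5′ end of the window. The other window of Aldh1a1 shared no run over 8 bases with that of Aldh1a7. In the other 32 pairs of windows of different ALDH genes the longest shared run was 6 to 10 bases.

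**Figure D1:**
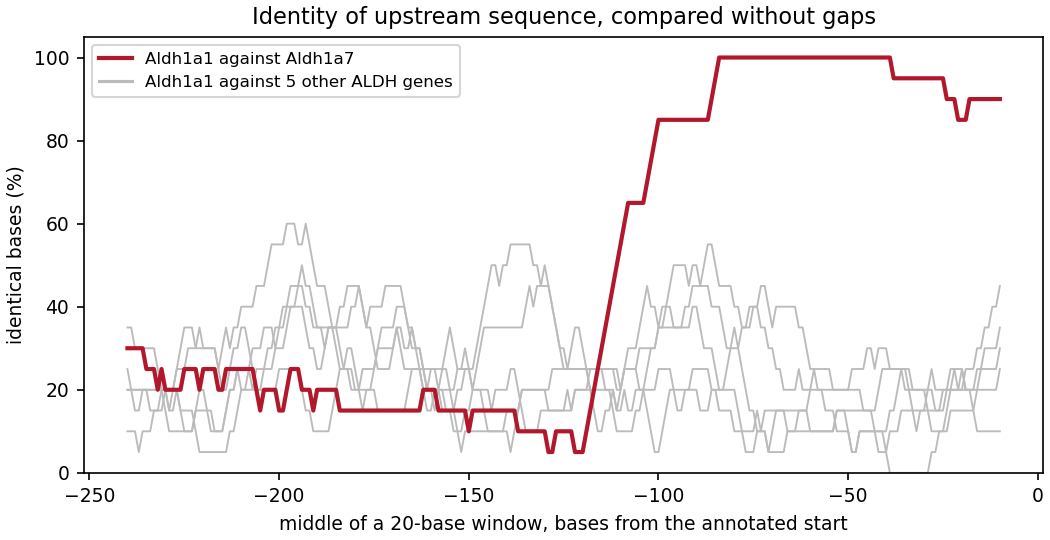
Share of identical bases (%, y axis) in running windows of 20 bases against the distance of the window's middle from the annotated start (x axis, in bases, upstream is negative), compared without gaps. The red line sets Aldh1a1 against Aldh1a7 and stays between 85.0% and 100% within 100 bases of the start, while the 5 grey lines set Aldh1a1 against Aldh1a2, Aldh1b1, Aldh3b1, Aldh6a1 and Aldh9a1 and stay at or below 55.0% there.

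Short motifs, 5 in all, were searched on both strands of each 250-base window. GATAA is the core bound by GATA factors, with a trailing A. TATAAA is a core of the TATA box. CCAAT is the CCAAT box. GAGGAA is an ETS core of the PU.1 kind. AGGTCA is a nuclear receptor half-site. Of all 32851 windows in the table, GATAA stood in 22.6%, TATAAA in 12.4%, CCAAT in 33.8%, GAGGAA in 23.3% and AGGTCA in 14.0%. Both printed windows held CCAAT at position 179, inside the shared run. The Aldh1a1 window held GATAA at position 220, which lies 31 bases before the start, and the difference T222G falls within it, so GATAA is not in the letters of the Aldh1a7 window. TATAAA was in the Aldh1a7 window at position 7 and not in that of Aldh1a1. Neither window held GAGGAA or AGGTCA. A match is a description of letters and not a binding site.

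Between the probes of Aldh1a1 and Aldh1a7, each 60 bases long, the longest shared run was 8 bases. Neither shared a word of 15 bases with a probe of another gene on the array. The Aldh1a1 probe lies at chr19:20717764-20717823 and the Aldh1a7 probe at chr19:20767553-20767612 on mm9, the build of the array files. Whether transcripts of 1 paralogue also bind the probe of the other was not tested, since the transcript sequences were not used here.

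After normalisation 26788 of 55681 probes passed the filter (on each array at least 1 channel well above background), and 19868 genes or intervals were tested. Median spot signals were 67.8 and 76.3 for ESlncRNA (replicates 1 and 2), against 35.9 and 39.5 for vector, and 44.4% to 45.6% of ESlncRNA spots and 49.1% to 52.1% of vector spots were well above background. Across the tested genes the 2 arrays' log2 ratios correlated at r = 0.983. Over 344 probes with repeated spots the median absolute difference between arrays was 0.025. Its median standard error from the spots was 0.040. Adjusted p values here rest on this spread between arrays and may not measure differences between cultures or animals. The fit with limma called 12528 of 19868 genes (63.1%) at a Benjamini-Hochberg adjusted p under 0.05, of which 5223 were higher (26.3% of those tested) and 7305 lower (36.8%) in ESlncRNA cells. The share of calls that were higher was 41.7%, against 59.2% with Agilent's processed signals and 77.5% with each array's ratios centred on the median without loess. These scalings moved the median log2 ratio of all genes to 0.11 and 0.34, where it was -0.03 after loess.

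Of the 10 ALDH genes, 9 had a probe that passed the filter on dim probes and Aldh1a2 did not. Aldh1a3 and Aldh1b1 passed only through the channel in which they were brighter, so a difference was built into their passing. By the same fit 4 were called higher (Aldh1a1, Aldh1a3, Aldh1a7, Aldh9a1), where 26.3% of all tested genes were, and 4 lower (Aldh1b1, Aldh2, Aldh3b1, Aldh6a1), where 36.8% were, and Aldh7a1 was not called. In bulk RNA such as this, fewer cells of a type and less RNA per cell cannot be told apart. These counts describe the choice of genes and nothing is read from them. At least 2-fold higher on both arrays were Aldh1a1 and Aldh1a7, where 0.604% of all tested genes were, and at least 2-fold lower were Aldh1b1, Aldh2 and Aldh3b1, where 8.1% were.

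**Figure D2:**
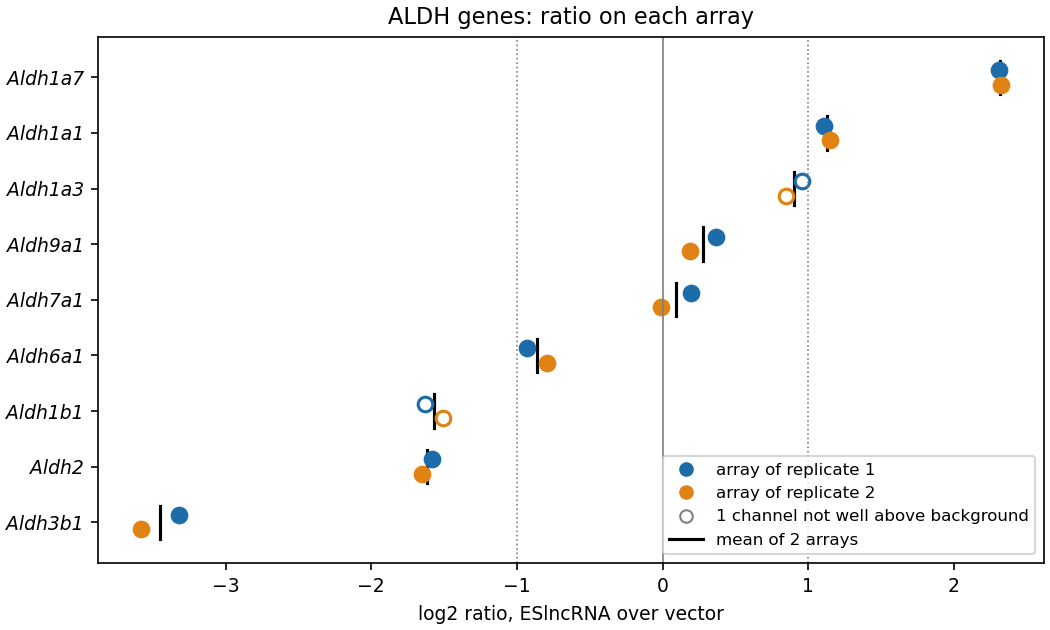
Log2 ratio of ESlncRNA over vector (x axis) for the 9 ALDH genes with a probe kept (y axis), on the array of replicate 1 (blue) and of replicate 2 (orange), with the mean as a black bar and dotted lines at 2-fold. Open circles are genes with 1 channel not well above background on both arrays. The ratios run from 2.32 for Aldh1a7 to -3.45 for Aldh3b1, and only Aldh7a1 has its 2 arrays on opposite sides of 0.

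Among the retinaldehyde dehydrogenases, Aldh1a1 is the cytosolic enzyme that oxidises retinaldehyde in many adult and embryonic tissues. Its probe had normalised intensities of 7434 and 8154 in ESlncRNA cells, against 3455 and 3673 in vector cells (replicates 1 and 2, with the offset of 50 included). Both ESlncRNA values lay above both vector values. The log2 ratios were 1.11 and 1.15, with a mean of 1.13 ± 0.032 (SD, n = 2), a 2.19-fold higher signal in ESlncRNA cells. From the highest, this mean was at rank 95 of 19868.

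Aldh1a7 is a rodent paralogue of Aldh1a1, and the mouse enzyme is not known as an efficient retinaldehyde oxidiser. Its probe had 2388 and 2578 in ESlncRNA cells, against 482 and 516 in vector cells, so the groups were far apart on both arrays. The log2 ratios of 2.31 and 2.32 averaged 2.32 ± 0.0084 (SD, n = 2), a 4.98-fold higher signal in ESlncRNA cells. This mean was at rank 1 of the 19868 genes after loess. The rank from the highest was 1 to 3 in each alternative except a normexp offset of 0, where it was 50, and Agilent's processed signals, where it was 181. Aldh1a1 ranked 498 with the processed signals.

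The 5 other genes whose pair of ratios lay nearest to that of Aldh1a7, by Euclidean distance over the 2 arrays, were Scd1, an unnamed lincRNA interval, Sh2d4a, Redrum and Tlcd4. Scd1, the desaturase that makes monounsaturated fatty acids, was the closest, with log2 ratios of 2.23 and 2.34 at a distance of 0.0785. Sh2d4a, an SH2 domain protein, had 2.11 and 2.11. Redrum, a noncoding RNA gene, averaged 2.03 ± 0.047 and Tlcd4 1.96 ± 0.079 (SD, n = 2). The interval was taken here by its position on chromosome 4 as the over-expressed ESlncRNA itself. It had 2.22 and 2.19 with vector not well above background, a 4.62-fold higher signal in ESlncRNA cells.

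Aldh1a3 is the retinaldehyde dehydrogenase known from the developing eye and nasal region. Its signals were low, with 136 and 123 in ESlncRNA cells against 69.9 and 68.2 in vector cells, where it was not well above background on either array. Both arrays gave a higher ESlncRNA signal, with log2 ratios of 0.96 and 0.85 and a mean of 0.90 ± 0.079 (SD, n = 2). Against the vector's floor the signal was at least 1.74-fold higher in ESlncRNA cells. The fitted ratio of this dim probe moved most with the processing, and was 1.39 in the authors' deposited log2 values, 2.47 with an offset of 0 and 4.19 with the processed signals. Its probe (chr7:73535785-73535844) also shares a 15-base word with 2 probes of other genes. The bound covers dimness only and is open to dye bias.

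Aldh1a2, the main source of retinoic acid in the early embryo, gave 75.2 and 83.4 in ESlncRNA cells and 73.0 and 82.6 in vector cells. It was not well above background in either channel on either array, so it has no ratio here and no direction. Its probe lies at chr9:71143931-71143990.

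**Figure D3:**
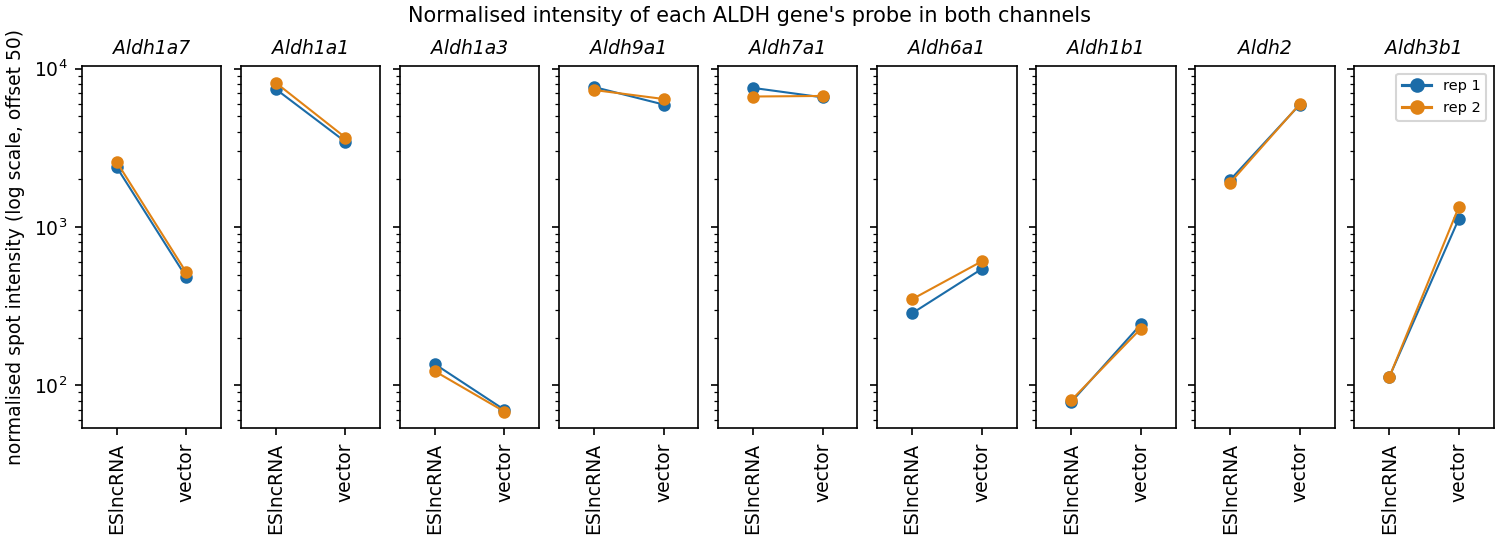
Normalised intensity (y axis, log scale, with an offset of 50) of the brightest probe of each of the 9 ALDH genes in ESlncRNA (left) and vector (right) on the arrays of replicate 1 (blue) and 2 (orange), with lines joining the channels of 1 array. Lines fall to the right for Aldh1a7, Aldh1a1 and Aldh1a3 and climb to the right for Aldh6a1, Aldh1b1, Aldh2 and Aldh3b1, and levels are comparable within a panel and not between panels.

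Aldh2 and Aldh1b1 are the mitochondrial enzymes known for oxidising acetaldehyde, and in mice Aldh2 protects haematopoietic stem cells from that aldehyde. Aldh2 had 1984 and 1903 in ESlncRNA cells, against 5935 and 5981 in vector cells. The groups did not overlap. The log2 ratios of -1.58 and -1.65 averaged -1.62 ± 0.050 (SD, n = 2), a 3.07-fold lower signal in ESlncRNA cells. The probe is printed because its 60 bases span 554 bases of the genome (chr5:122022137-122022690 on mm9, minus strand) and so do not lie in 1 piece on it. Binding of unspliced RNA was not tested.
Aldh2 probe: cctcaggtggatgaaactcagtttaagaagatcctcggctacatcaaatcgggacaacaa

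Aldh1b1, which also accepts retinaldehyde, had 78.2 and 80.2 in ESlncRNA cells, where it was not well above background on either array, against 242 and 228 in vector cells. The log2 ratios were -1.63 and -1.51, with a mean of -1.57 ± 0.089 (SD, n = 2), a 2.97-fold lower signal in ESlncRNA cells. The bound for dimness was the same 2.97-fold, so it adds no limit to this estimate. The fitted ratio was -1.39 with median centring, -2.53 with an offset of 0 and -3.01 with the processed signals. Its probe lies at chr4:45816960-45817019, and its promoter window held none of the 5 motifs.

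Aldh3b1 oxidises medium- and long-chain aldehydes that arise from lipid peroxidation. Its probe (chr19:3913493-3913552) had 113 and 112 in ESlncRNA cells, against 1129 and 1343 in vector cells. After loess this was the largest difference among these genes in either direction, with log2 ratios of -3.32 and -3.58 and a mean of -3.45 ± 0.18 (SD, n = 2), a 10.9-fold lower signal in ESlncRNA cells. From the lowest, it was at rank 117 of 19868. Over 12 alternatives its ratio was -4.12 to -3.11. Its neighbours in the same gene cluster, Aldh3b2 and Aldh3b3, lie beyond Unc93b1 in the RefSeq table and did not pass the filter on dim probes.

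The 250 bases before the start of Aldh3b1 (chr19:3929779-3930028 on GRCm38.p6, minus strand) are printed for comparison with the pair of higher genes, with capitals marking GAGGAA read on the other strand.
Aldh3b1: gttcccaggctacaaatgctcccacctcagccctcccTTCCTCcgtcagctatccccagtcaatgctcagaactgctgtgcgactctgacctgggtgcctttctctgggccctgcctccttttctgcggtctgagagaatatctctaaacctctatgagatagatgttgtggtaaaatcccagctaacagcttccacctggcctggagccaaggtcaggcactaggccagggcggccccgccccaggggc
GAGGAA begins at position 38 on the other strand. AGGTCA stands at position 212 on the gene's strand and at position 87 on the other strand. The other motifs were not in its letters.

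Aldh6a1 is the mitochondrial methylmalonate semialdehyde dehydrogenase of valine and thymine breakdown, and 2 probes measure it. The brighter probe (chr12:85771835-85771894) had 285 and 349 in ESlncRNA cells, against 542 and 606 in vector cells. Its log2 ratios of -0.93 and -0.79 averaged -0.86 ± 0.096 (SD, n = 2), a 1.82-fold lower signal in ESlncRNA cells. The other probe (chr12:85772801-85772860) had 71.1 and 81.2 in ESlncRNA cells, not well above background, against 81.5 and 87.7 in vector cells. Its ratio of -0.15 ± 0.062 (SD, n = 2) had the same sign and a far smaller size, at least 1.09-fold lower. With the processed signals the 2 probes gave -0.80 and -0.78.

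Aldh7a1, or antiquitin, oxidises an intermediate of lysine breakdown. Its brighter probe (chr18:56686429-56686488) had 7560 and 6669 in ESlncRNA cells and 6589 and 6725 in vector cells, so the groups overlapped. The log2 ratios were 0.20 and -0.01, with a mean of 0.09 ± 0.15 (SD, n = 2). The ratio was 0.75 with median centring, which is 0.41 above the median of all genes under that scaling, and with the processed signals it was -0.03 relative to all genes. The other probe was not well above background in either channel.

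Aldh9a1 makes the precursor of carnitine from an aldehyde. It had 7663 and 7335 in ESlncRNA cells, against 5935 and 6433 in vector cells, and the groups did not overlap. The log2 ratios of 0.37 and 0.19 averaged 0.28 ± 0.13 (SD, n = 2), a 1.21-fold higher signal in ESlncRNA cells. Relative to all genes the ratio was 0.31 after loess, 0.26 on Agilent's processed signals and 0.59 when arrays were centred on the median. It was not called in the deposited log2 values or with an offset of 0. Its probe lies at chr1:169298245-169298304.

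**Figure D4:**
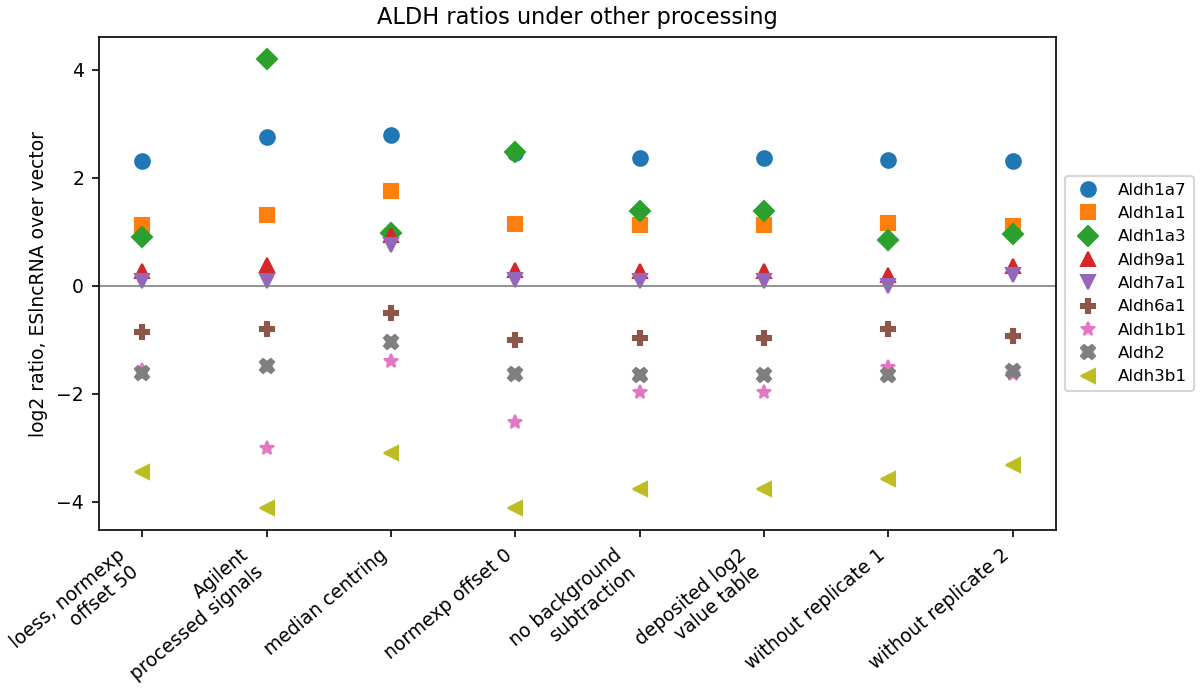
Log2 ratio of ESlncRNA over vector (y axis) of the 9 ALDH genes (symbols) under the loess normalisation used here, 5 other ways of scaling or background correction, and each array left out (x axis). Aldh1a7 stays between 2.31 and 2.78 and Aldh3b1 between -4.12 and -3.11, while Aldh1a3, dim in vector, reaches 4.19 and Aldh1b1, dim in ESlncRNA, reaches -3.01.

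The other ALDH genes are outside the set, though their list too was chosen with earlier results of these data known. Of the 11 genes 8 were tested. Of these 1 rose and 5 fell in ESlncRNA cells, with a median log2 ratio of -0.22 where the median of all tested genes was -0.03. Aldh18a1, the enzyme that starts proline synthesis from glutamate, rose by 0.80 ± 0.084 (SD, n = 2; limma, Benjamini-Hochberg adjusted p = 3.23e-05), higher on both arrays. Aldh1l1, a folate enzyme that oxidises formyl-tetrahydrofolate, had 272 and 248 in ESlncRNA cells against 819 and 756 in vector cells and fell by 1.60 ± 0.013 (adjusted p = 7.81e-07). Aldh5a1, the succinic semialdehyde dehydrogenase, fell by 1.44 ± 0.11 (adjusted p = 2.92e-06). Aldh16a1, a member without known catalytic activity in mammals, fell by 0.46 (adjusted p = 0.000267). Aldh3a2, the fatty aldehyde dehydrogenase, fell by 0.29 (adjusted p = 0.00622) and Aldh4a1, of proline breakdown, fell by 0.15 (adjusted p = 0.0365), and both calls were lost with the processed signals. The ratios of Aldh3a1 (0.05) and Aldh8a1 (0.03) did not pass. With median centring Aldh16a1 and Aldh4a1 turned to 0.28 and 0.36, the list's median to 0.23 and its calls to 5 higher and 2 lower. The median of all tested genes was 0.34 under that scaling.

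Upstream of the retinaldehyde dehydrogenases, 11 of 18 genes of retinol oxidation were tested, of which 4 rose and 4 fell (8 and 2 with median centring), with a median of -0.01 (0.10 on Agilent's processed signals, 0.34 after median centring). Rdh10, the retinol dehydrogenase that supplies retinaldehyde in the embryo, rose by 0.58 ± 0.083 (limma adjusted p = 0.000148) and Rdh11 rose by 0.41 ± 0.063 (adjusted p = 0.000621). Dhrs3, which reduces retinaldehyde back to retinol, fell by 1.49 ± 0.028 (adjusted p = 1.1e-06) and Dhrs7, a related reductase, fell by 1.33 ± 0.11 (adjusted p = 3.83e-06). Each had the same sign on both arrays. Of the genes of retinoid uptake, binding and storage 10 of 16 were tested, 0 rose and 7 fell (3 and 6 with median centring). Of the 7 that fell, 4 (Ttr, Crabp1, Bco1 and Bco2, named after their values were seen) were not well above background in ESlncRNA cells and passed the filter only through vector, so a fall was built into their passing. Rbp4, the plasma carrier of retinol, fell by 0.98 ± 0.084 (limma adjusted p = 1.26e-05), lower on both arrays.

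Downstream, 5 of 6 retinoid receptor genes were tested, 0 rose and 3 fell (1 and 2 with median centring). Rarg had 155 and 169 in ESlncRNA cells against 557 and 619 in vector cells and fell by 1.86 ± 0.023 (limma adjusted p = 4.23e-07). Rara, the receptor known from promyelocytes, fell by 0.83 ± 0.11 (adjusted p = 3.92e-05) and Rxrb fell by 0.64 ± 0.0016 (adjusted p = 5.42e-05), though Rxrb turned to 0.15 with median centring. Rxra (-0.09, adjusted p = 0.141, not well above background in ESlncRNA cells) and Rxrg (-0.08, adjusted p = 0.335) did not pass, and Rarb was not tested. None of the 4 genes of retinoic acid catabolism, Cyp26a1, Cyp26b1, Cyp26c1 and Cyp2s1, had a probe that passed the filter on dim probes.

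Of 17 genes known as retinoic acid targets 7 were tested, of which 2 rose and 4 fell (4 and 3 with median centring). Tgm2, a transglutaminase, rose by 0.69 ± 0.026 (limma adjusted p = 4.04e-05) and Nrip1, a nuclear receptor co-repressor, rose by 0.44 ± 0.057 (adjusted p = 0.000414). Cebpe, a granulocyte transcription factor, fell by 4.29 ± 0.0084 (adjusted p = 5.46e-08) and was 19.6-fold lower in ESlncRNA cells.

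Of the valine and propionate genes around Aldh6a1, all 17 were tested, 1 rose and 7 fell (10 and 3 with median centring). Of the 7 that fell, 1 (Bcat1) was not well above background in ESlncRNA cells. It passed the filter only through vector, so a fall was built into its passing. Bcat2, which removes the amino group, rose by 0.34 ± 0.025 (limma adjusted p = 0.00115), and Acadsb fell by 0.85 ± 0.056 (adjusted p = 1.88e-05) and Bckdha fell by 0.81 ± 0.060 (adjusted p = 2.37e-05). Of the lysine genes around Aldh7a1 4 of 9 were tested, 1 rose and 2 fell (2 and 0 with median centring). Gcdh rose by 0.57 ± 0.012 (adjusted p = 0.000102), Hadh fell by 0.38 ± 0.040 (adjusted p = 0.000724) and Acat1 fell by 0.36 ± 0.054 (adjusted p = 0.00109), though with median centring Hadh turned to 0.15 and Acat1 to 0.14. Of the carnitine genes around Aldh9a1 8 of 9 were tested, 2 rose and 3 fell (5 and 1 with median centring), and Slc22a4, a transporter of organic cations, fell by 1.33 ± 0.15 (adjusted p = 6.38e-06). Of 18 genes of aldehyde defence and ethanol oxidation 16 were tested, 8 rose and 5 fell. With median centring 13 were called higher and 2 lower. Akr1b3, Akr1a1 and Cbr1, named after their values were seen, turned from lower to higher calls with ratios of 0.31, 0.33 and 0.31. Txnrd1 (0.68) and Fancc (0.48), not called after loess, were also called higher. Gsta4, which conjugates hydroxynonenal, rose by 1.30 ± 0.035 (adjusted p = 2.08e-06) and catalase (Cat) rose by 0.63 ± 0.0016 (adjusted p = 6.14e-05), while Akr1b8, an aldo-keto reductase, fell by 1.66 ± 0.053 (adjusted p = 8e-07) and Cbr3, a carbonyl reductase, fell by 0.61 ± 0.055 (adjusted p = 8.91e-05).

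**Figure D5:**
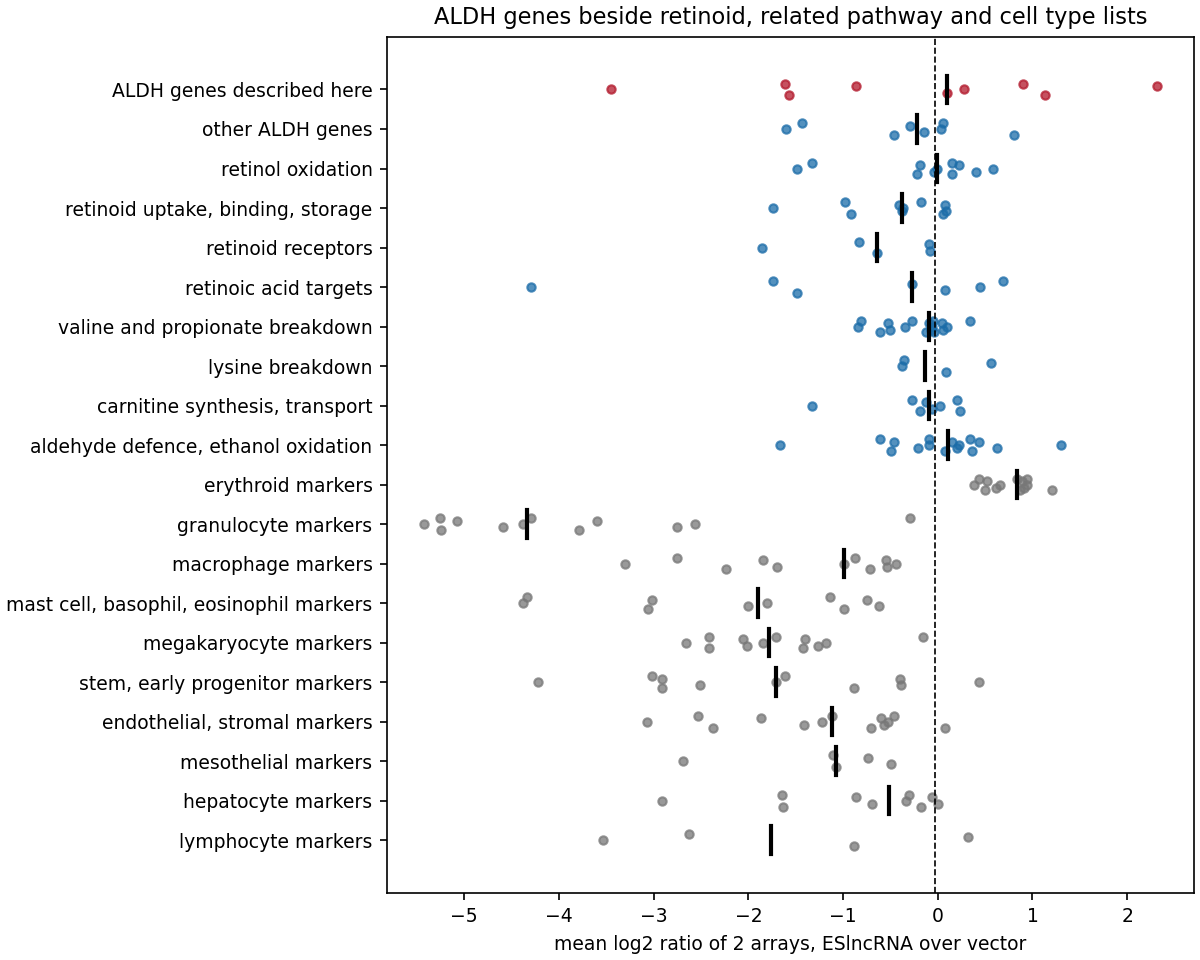
Mean log2 ratio of ESlncRNA over vector over 2 arrays (x axis) of each tested gene (points) in the lists (y axis), with the list median as a black bar and the median of all 19868 genes, -0.03, as a dashed line. The ALDH genes (red) run from -3.45 to 2.32, the metabolic and retinoid lists (blue) have medians between -0.64 and 0.11, and of the marker lists (grey) only the erythroid one has a median above 0.

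Markers of several cell types also differed between ESlncRNA and vector cells. The calls of all marker lists are those after loess, and they were not counted under the other scalings. Of 13 erythroid markers 11 were called higher and 0 lower by limma, with a median log2 ratio of 0.84. Their summed signal was 346125 to 388969 in ESlncRNA cells, against 228635 to 262564 in vector cells. Of the 13, 0 failed to be well above background in a channel on both arrays. Slc4a1 and Alas2 were the pair that did not pass. For both the arrays differed in sign, with log2 ratios of -0.45 and 1.48 for Slc4a1 and -0.02 and 0.77 for Alas2 (replicates 1 and 2).

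All 12 granulocyte markers fell, with a median of -4.34 and a summed signal of 70135 to 83568 in ESlncRNA cells, against 1181890 to 1313110 in vector cells. Each was well above background in ESlncRNA cells on at least 1 array. The 11 tested of 12 macrophage markers also fell (summed signal 1885 to 1932 in ESlncRNA cells, 12526 to 12562 in vector cells), and 6 of them were not well above background in ESlncRNA cells.

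Falls were called for the 10 tested of 12 markers of mast cells, basophils and eosinophils, for all 12 megakaryocyte markers and for 10 of 11 tested stem and early progenitor markers. Their summed signals were 5764 to 6543, 24412 to 25158 and 20165 to 20254 in ESlncRNA cells, against 26618 to 28066, 91435 to 94064 and 44669 to 45684 in vector cells, in that order of lists. Not well above background in ESlncRNA cells were 3 mast cell, 0 megakaryocyte and 3 stem cell markers. Kit, the stem cell factor receptor, was the 1 stem and progenitor marker that rose.

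Of 13 endothelial and stromal markers 12 fell, of 10 tested hepatocyte markers 8, of 5 tested mesothelial markers 5 and of 4 tested lymphocyte markers 3. Their summed signals were 6489 to 6846, 3069 to 3134, 415 to 417 and 1327 to 1442 in ESlncRNA cells, against 17721 to 17986, 8586 to 9179, 1364 to 1375 and 6695 to 7214 in vector cells. Not well above background in ESlncRNA cells were 5, 2, 4 and 1 of them. They passed the filter only through vector, as did the dim macrophage, mast cell and stem cell markers. A fall was thus built into the passing of each of these dim markers. Cd3e, the lymphocyte marker tested that did not fall, was called higher. The part of these cell types in the ratios of the ALDH genes was not tested.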

How the data were processed

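Per the labels' protocols, the QuickAmp kit amplified and labelled total RNA (100 ng stated for replicate 2). The authors' deposited spot values are intensities (mean signal and median local background) from Feature Extraction 10.1.1.1 with coordinates on mm9, per the file headers. Feature Extraction's processed intensities were tried as well. Direction was checked on the deposited log10 ratios (Cy5 over Cy3) (r = 0.986 and 0.992 with the processed intensities). The authors' deposited log2 values, made with limma per the submitters' processing notes, had medians of -0.02 and -0.01. Loess ratios of Cy5 over Cy3 without background subtraction matched them (r = 0.99996 on each array), which set their log2 scale and direction.

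Background was then corrected by normexp (offset 50) and ratios normalised with loess in R 4.3.3 and limma 3.58.1, with control spots and the 284 and 308 outlier spots of 59305 at weight 0. No spot was saturated (0). Both arrays lay on 1 slide, so slide could not be tested as a batch, and their number limits the precision. Each gene was represented by its brightest probe that on each array had at least 1 channel well above background. Names came by accession for 26413 probes, by symbol for 3859, by an older symbol for 735, and 24674 kept the file's name. The fit was an intercept with 5.27 prior and 1 residual degrees of freedom, adjusted with Benjamini-Hochberg at 0.05, and was tested on simulated data. Bounds written "at least" divide the bright channel's mean by the dim channel's signal or, where higher, by that channel's detection floor, the lowest signal well above background. The ALDH genes and all gene lists were chosen with earlier results of these data known. Named were each ALDH gene of the set, each other ALDH gene tested, all retinoid receptor and catabolism genes, and the 5 genes nearest to Aldh1a7. Of each further list other than markers, up to 2 called genes each way with the largest change were named. For the carnitine list this rule was used for the largest fall only. The other genes named without an adjusted p were chosen after their values were seen. A gene that this rule also names is not reported here.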

Additional observations from a re-analysis of the deposited data

How the results depend on the processing

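Over the 12 alternatives, 11 for Aldh1a3 and Aldh1b1, which have no value when both channels must be well above background, each ALDH gene kept its sign except Aldh7a1, which did so in 11 (-0.01 without replicate 1). The count of genes called higher, 5223, became 12511 with median centring and 3446 with no replicate block, and the count called lower, 7305, became 4707 with Agilent's processed signals and 3633 with median centring. The array pairs the groups and is the block here. A fit with no replicate block gave 4 ALDH genes called higher and 4 lower, where 3446 and 5732 of all 19868 genes were. Of the ALDH genes 5 were called higher with median centring, where 12511 of 19868 genes were. An offset of 0 and the deposited log2 values gave 3, where 3936 and 3543 of 19868 genes were, since Aldh9a1 was not called. With both channels required 3 were called higher, where 5008 of 17236 genes were, and Aldh1a3 has no value there. Nothing is read from these counts. Of 82 tested genes in the lists other than markers, 18 were called higher and 38 lower, against 49 and 19 with median centring, which turned the sign of 14 of those 38, 9 of them to a higher call. Among the genes whose ratio it turned were Acat1 (0.14), Aldh16a1 (0.28), Aldh4a1 (0.36), Hadh (0.15), Rxrb (0.15), Rxrg (0.35) and Slc22a5 (0.0063). It also turned the medians of retinol oxidation (0.34), retinoic acid targets (0.32), valine and propionate (0.31), lysine (0.49) and carnitine genes (0.27). The median of all tested genes was 0.34 under that scaling, so a turned sign need not be a turn relative to all genes. Of these list medians only that of the lysine genes lay clearly above it. The causes were not tested. With 1 array left out no test can be made. Signal over background limits Aldh1a2, Aldh1a3, Aldh1b1 and the dimmer probes of Aldh6a1 and Aldh7a1.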
